A study of Homo sapiens with 96 samples.

Results

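The ER chaperone genes described here are 10 genes of the unfolded protein response: HSPA5, HSP90B1, HYOU1, CALR, PDIA4, PDIA6, SDF2L1, CRELD2, MANF and DNAJB9. They were taken by gene name as targets of the type driven by ATF6 and XBP1. Earlier results of these data were known when they were chosen, so counts of called members do not describe an unselected list. All 10 of 23611 gene names were found and passed the filter on low values in each of 10 expression tables. The endoplasmic reticulum folds secreted and membrane proteins. When unfolded proteins build up there, the membrane sensors ATF6 and IRE1 (gene ERN1) raise the transcription of chaperone genes, ATF6 as a cleaved factor and IRE1 by splicing XBP1 mRNA, while PERK (gene EIF2AK3) slows translation and acts through ATF4. The chaperones are known for their high basal level in cells that secrete much protein.

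RNA was sequenced from hTERT-RPE1 cells, an established human retinal pigment epithelium line made immortal with telomerase. In 4 tables, whole-cell or nuclear RNA, either nascent or input, was measured in cells released from 400 uM mimosine (22 h, an iron chelator that arrests cells before S phase) in windows T0-2, T2-4, T4-6, T6-8 and T8-10, against asynchronous cells, with 2 libraries a group. In 3 further tables, cells transfected with 130 to 150 pmol of an LNA GapmeR (an antisense oligonucleotide that directs RNase H to an RNA) against the long non-coding RNA LINC00704, LUCAT1 or MIAT were set against cells with a control LNA at points S0, S2, S4 and S6 after the same synchronisation (8 knockdown and 8 control libraries a table). In the last 3 tables, asynchronous knockdown cells (3 libraries each) were set against asynchronous control cells (2 libraries). The 8 synchronised control libraries recur in 3 tables, and so do the 2 asynchronous ones, so the knockdown comparisons within each state share their controls. No source used here gives the unit of the window and point numbers or says that libraries came from separate cultures, so a p-value reflects only how far these libraries differ from each other, possibly for technical reasons.

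Depth ran from 6.39 to 28.6 M recovered reads in the fraction tables, from 9.11 to 23.4 M in the synchronised tables and from 26.4 to 50.5 M in the asynchronous tables. Each targeted RNA was lower in every knockdown library than in every control library. LINC00704 (MANCR in the tables) lay at 0.55 to 1.61 RPKM in synchronised knockdown libraries and at 1.89 to 4.04 RPKM in controls. LUCAT1 lay at 0.133 to 0.379 RPKM against 0.44 to 0.994 RPKM, and MIAT at 0.0718 to 0.221 RPKM against 0.243 to 0.323 RPKM. Markers of mature pigment epithelium were low: OTX2 and MITF had table medians of up to 2.26 and 1.21 RPKM, while RPE65, TYR, LRAT and RLBP1, where listed, had table medians of at most 0.0993 RPKM. All 6 markers of cultured epithelial or mesenchymal cells were present, led by VIM with table medians of 86.5 to 300 RPKM. Of the markers of secretory and other cell types, HBB had a median of 1.12 RPKM in whole-cell nascent and 0.356 RPKM in nuclear nascent libraries. It reached 72.4 RPKM in 1 whole-cell nascent T0-2 library. No other marker of these lists passed 0.431 RPKM in any library, and JCHAIN, MZB1, INS and PRSS1 were not listed. In bulk samples, fewer cells of a type and less RNA per cell cannot be told apart.

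The promoters of 5 members are shown because the ER stress response element (ERSE), the site bound by ATF6 with NF-Y, is an element known from this gene class. Not all of the 5 hold it. The 250 bases upstream of the RefSeq start were searched on both strands for the ERSE, taken as CCAAT and CCACG with 9 free bases between them, and for the related ERSE-II, taken as ATTGG and CCACG with 1 free base between them. These motif letters are general knowledge and were not read from the files. Capitals mark the matched letters of a motif: both ends of an ERSE, or a whole ERSE-II, on either strand. Each sequence runs 5′ to 3′ on the gene's strand and is RefSeq sequence of GRCh38.p14: HSPA5 at chr9:125241344-125241593 (minus strand), CALR at chr19:12938359-12938608 (plus strand), SDF2L1 at chr22:21642052-21642301 (plus strand), HYOU1 at chr11:119057206-119057455 (minus strand) and DNAJB9 at chr7:108569624-108569873 (plus strand).
HSPA5: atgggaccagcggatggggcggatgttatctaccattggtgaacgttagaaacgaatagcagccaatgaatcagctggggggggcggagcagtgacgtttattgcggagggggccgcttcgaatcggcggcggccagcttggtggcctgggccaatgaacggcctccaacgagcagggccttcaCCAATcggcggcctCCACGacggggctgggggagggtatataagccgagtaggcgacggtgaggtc
CALR: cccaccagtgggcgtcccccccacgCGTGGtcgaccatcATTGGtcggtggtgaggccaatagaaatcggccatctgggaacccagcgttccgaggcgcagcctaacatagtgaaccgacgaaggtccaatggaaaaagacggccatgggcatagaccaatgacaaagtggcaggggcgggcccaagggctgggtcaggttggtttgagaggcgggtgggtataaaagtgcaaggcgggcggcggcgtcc
SDF2L1: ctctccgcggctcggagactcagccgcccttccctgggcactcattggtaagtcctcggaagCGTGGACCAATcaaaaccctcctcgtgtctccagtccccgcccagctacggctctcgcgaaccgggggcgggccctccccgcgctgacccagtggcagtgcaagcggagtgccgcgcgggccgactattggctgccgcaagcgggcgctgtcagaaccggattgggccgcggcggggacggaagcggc
HYOU1: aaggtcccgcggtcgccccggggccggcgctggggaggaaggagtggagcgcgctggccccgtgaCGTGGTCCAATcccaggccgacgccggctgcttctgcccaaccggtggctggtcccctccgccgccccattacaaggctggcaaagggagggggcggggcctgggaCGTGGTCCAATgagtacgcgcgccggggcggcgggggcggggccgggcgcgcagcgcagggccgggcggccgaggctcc
DNAJB9: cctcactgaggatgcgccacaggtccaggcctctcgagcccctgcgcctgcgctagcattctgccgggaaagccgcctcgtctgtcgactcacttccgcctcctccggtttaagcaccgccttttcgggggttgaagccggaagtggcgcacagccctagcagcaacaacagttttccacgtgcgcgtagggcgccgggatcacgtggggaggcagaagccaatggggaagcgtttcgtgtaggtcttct

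An exact ERSE was found upstream of 5 members (HSPA5, HSP90B1, PDIA6, CRELD2 and CALR) and an ERSE-II upstream of 2, SDF2L1 and HYOU1. HSP90B1 held 2 ERSE matches and HYOU1 held 2 ERSE-II matches. Over 35116 promoter windows of the same length, 0.074% held an ERSE and 0.0513% an ERSE-II. PDIA4, MANF and DNAJB9 held neither spelling in these windows. The window of DNAJB9 held 2 copies of the ERSE's CCACG end, which 33.5% of all windows also hold, and 1 CCAAT. HYOU1 alone among the members held the UPRE spelling TGACGTG, present in 1.68% of windows. The members had 12 promoter entries in the reference, with 2 each for PDIA4 and PDIA6, and only the second entry of PDIA6 held a match.

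Levels are RPKM over the length column of the tables, which follows the whole gene span (6478 bp for HSPA5, 54587 bp for PDIA6), so a member with long introns has a lower value per kilobase. CALR, the lectin chaperone that binds glycoproteins and stores calcium, had the highest level in all 10 tables, with table medians of 56.6 to 206 RPKM. HSPA5, the ER Hsp70 also called BiP, came next with 37.9 to 84.9 RPKM, and HSP90B1, the ER Hsp90, followed with 24.2 to 38.4 RPKM. MANF, a small secreted ER stress protein, and HYOU1, a large Hsp70-type chaperone that exchanges nucleotide on BiP, had table medians of 4.63 to 20.9 RPKM and 6.91 to 18.5 RPKM, and HYOU1 was the higher of the pair in the nuclear tables and in asynchronous LUCAT1 cells. In the whole-cell fractions CALR and HSPA5 did not overlap. The lowest CALR library was at 102 RPKM in nascent and 122 RPKM in input RNA, and the highest HSPA5 library at 81.8 and 92.0 RPKM. In both nuclear fractions their ranges overlapped. The disulfide isomerases PDIA4 and PDIA6, and the small ER proteins SDF2L1 and CRELD2, lay lower, at table medians of 0.94 to 12.6 RPKM. The exception was PDIA4 above MANF in the nuclear tables, at 6.07 against 4.63 RPKM in nascent and 8.59 against 4.95 RPKM in input RNA. DNAJB9, a J-domain partner of BiP, was lowest in 9 tables with 1.11 to 3.07 RPKM, and in nuclear nascent RNA SDF2L1 was lower (0.94 against 1.03 RPKM). SDF2L1 had table medians of 0.94 and 1.30 RPKM in the nuclear tables and of 4.98 to 12.6 RPKM in the whole-cell and knockdown tables, which were scaled separately. In the RefSeq annotation PDIA6 overlaps ATP6V1C2 and HYOU1 overlaps HYOU1-AS1; strand use in counting the fraction tables is not stated, so those reads may not be separable there.

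Log2 differences below are on log2(RPKM + 0.25), and a gene was called when its Benjamini-Hochberg adjusted p over all genes tested in a table was under 0.05 in limma. The map of differences gives all 10 members in the 10 main comparisons.

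**Figure D1:**
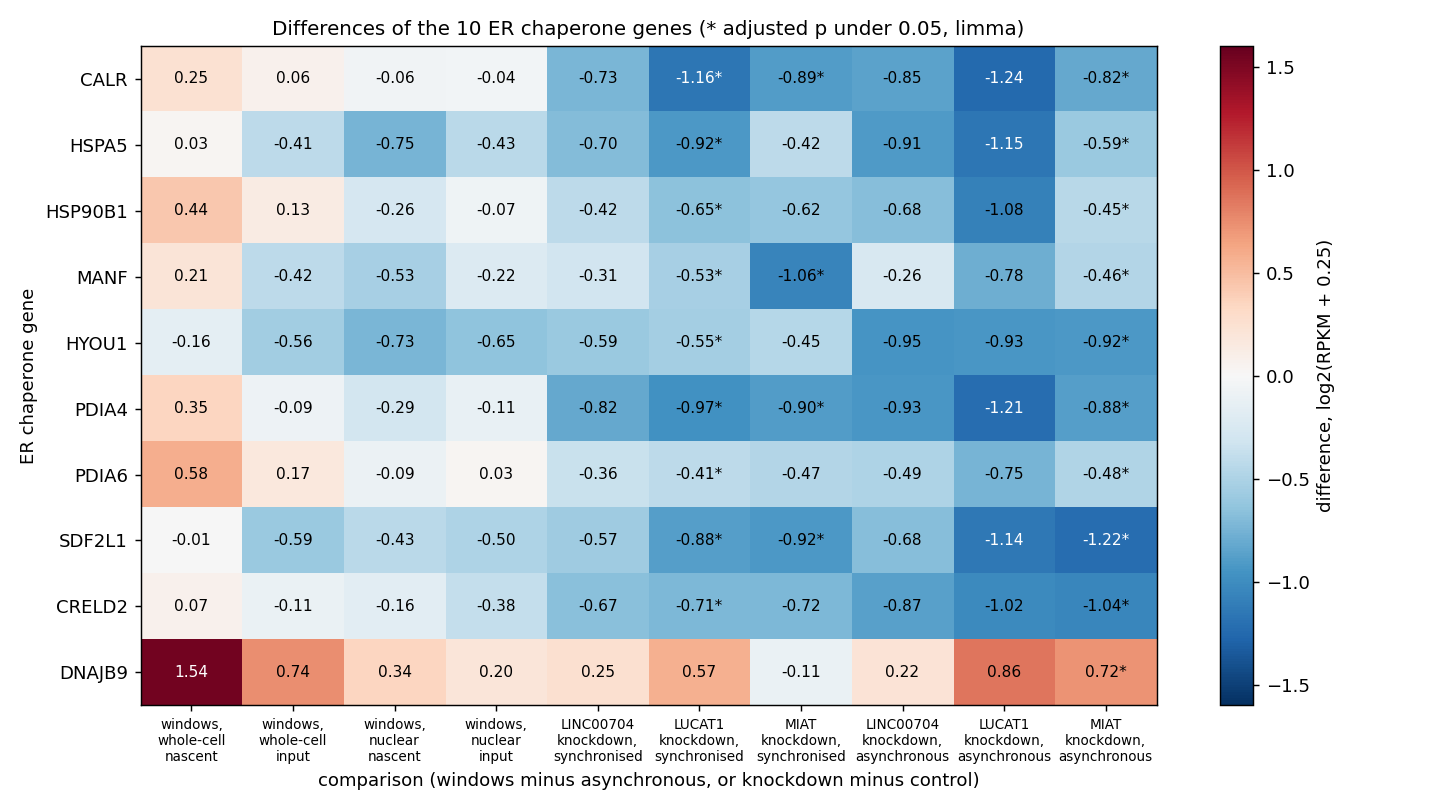
Difference in log2(RPKM + 0.25) of the 10 ER chaperone genes (rows) in 10 comparisons (columns), windows minus asynchronous cells or knockdown minus control; colour and printed value give the difference, and an asterisk an adjusted p under 0.05 by limma. In the synchronised LUCAT1 column 9 members carry an asterisk below 0, and in the DNAJB9 row 9 of the 10 values are above 0.

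With LUCAT1 knockdown in synchronised cells 9 of the 10 members were called lower, beside 8.12% of the 9870 genes tested. CALR fell by 1.16 on the log2 scale, PDIA4 by 0.97, HSPA5 by 0.92, SDF2L1 by 0.88, CRELD2 by 0.71, HSP90B1 by 0.65, HYOU1 by 0.55, MANF by 0.53 and PDIA6 by 0.41. The median of the members was -0.68, and that of all genes 0.11. DNAJB9 was the exception, with a difference of 0.57 ± 0.24 (SE, limma adjusted p = 0.090).

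CALR had 64.3 and 125 RPKM in LUCAT1 knockdown libraries at S0, against 153 and 259 RPKM in controls at S0. It had 87.0 and 124 RPKM in knockdown libraries at S2, 112 and 136 RPKM at S4, and 118 and 144 RPKM at S6. The controls had 250 and 277 RPKM at S2, 222 and 300 RPKM at S4, and 227 and 330 RPKM at S6. All 8 knockdown libraries lay below all 8 controls, a pattern that 0.932% of tested genes showed downwards, and no other member had it. The difference of CALR was -1.16 ± 0.20 (SE, limma adjusted p = 0.0030), and its means were 114 ± 26.2 RPKM in knockdown libraries and 252 ± 54.0 RPKM in controls (SD, n = 8 each).

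Of the BiP machinery, HSPA5 lay at 22.5 to 55.3 RPKM (median 46.5) in LUCAT1 knockdown libraries and at 54.8 to 98.6 RPKM (median 81.3) in controls, with a difference of -0.92 ± 0.18 (limma adjusted p = 0.0062). The groups overlapped by a single pair, the knockdown library at S4 with 55.3 RPKM and the control at S0 with 54.8 RPKM. HSP90B1 lay at 19.4 to 29.0 RPKM (median 23.6) against 28.8 to 50.9 RPKM (median 37.5), again with the groups touching at one end. HYOU1 overlapped more, at 6.59 to 15.5 RPKM (median 8.14) against 6.81 to 18 RPKM (median 13.2), and its adjusted p was 0.046.

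Of the disulfide isomerases, PDIA4 lay at 2.99 to 5.62 RPKM (median 4.52) in LUCAT1 knockdown libraries and at 5.04 to 11.4 RPKM (median 8.94) in controls, a difference of -0.97 ± 0.17 (limma adjusted p = 0.0031). Here the lowest control, the first library at S0, set the overlap, and the other 7 controls were all above the knockdown libraries. PDIA6, in the same enzyme family, had the smallest of the called differences, -0.41 ± 0.13 (limma adjusted p = 0.036), with 3.13 to 5.15 RPKM against 3.91 to 6.00 RPKM. Among the small ER proteins, SDF2L1 lay at 3.42 to 9.59 RPKM (median 4.23) against 6.69 to 13.4 RPKM (median 9.04). In SDF2L1, CRELD2, MANF and HYOU1 alike, the highest knockdown value was that of 1 library at S6, numbered 2 in its column name, which also had the highest knockdown level of CALR.

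DNAJB9 had 6.01 and 2.80 RPKM in LUCAT1 knockdown libraries at S0, 6.09 and 3.89 RPKM at S2, 2.42 and 4.45 RPKM at S4, and 2.20 and 3.54 RPKM at S6. Controls had 2.46 and 3.09 RPKM at S0, 1.77 and 2.63 RPKM at S2, 1.1 and 3.03 RPKM at S4, and 2.4 and 3.87 RPKM at S6. The highest knockdown values came from the libraries numbered 2 at S0 and S2, which stood farthest from 0 among knockdown libraries on the first principal component of that table. In those same 2 libraries CALR and HSPA5 were at their lowest. The counts of members that follow stand beside 1034 to 4028 of all genes called over the alternatives. Without both libraries 5 members were called lower (CALR, PDIA4, HSPA5, SDF2L1 and MANF) and the median of the members was -0.71. Leaving out control S0 replicate 2, S2 replicate 1, S4 replicate 1 or S6 replicate 1, or the knockdown library numbered 3 at S4 or 1 at S6, also brought the count to 5, all of them lower, and leaving out control S4 replicate 2 brought it to 10, with DNAJB9 higher.

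The members' median difference in LUCAT1 knockdown was -0.62 at S0, -0.91 at S2, -0.79 at S4 and -0.39 at S6. An F-test of the knockdown effect among points called none of the 10 members and 0% of the 9870 genes (limma; 0 members and 39 genes at an unadjusted p under 0.05), so a change of the effect with the point was not detectable with 2 libraries a group. Scaling mattered for all genes: the split was 1879 higher and 801 lower as deposited, 922 and 1154 after quantile normalization, and 895 and 1390 after median scaling, which put the median of all genes at -0.05 in place of 0.11. The members' median stayed below 0 under both, at -0.61 and -0.84, and 7 and 9 members were called.

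Other genes of the ER folding pathway were taken from lists chosen by function. Of 21 other ER chaperones and folding enzymes tested, 7 fell with LUCAT1 knockdown and none rose, with a median of -0.26. They include FKBP2, an ER prolyl isomerase, at -0.89 ± 0.18, QSOX1, a sulfhydryl oxidase, at -0.81 ± 0.21, PPIB, the ER cyclophilin B, at -0.73 ± 0.16, and SERPINH1, the collagen chaperone, at -0.60 ± 0.20 (SE, limma adjusted p = 0.0070, 0.015, 0.0086 and 0.040). The 7 are 33.3% of that list; over all genes 8.12% were called lower and 19% higher. PPIB lay at 7.47 to 15.7 RPKM in knockdown libraries and at 12.6 to 19 RPKM in controls, so the groups overlapped. Of 48 other targets of the ATF6 and XBP1 type, 4 fell and 1 rose, with a median of -0.06, so the share that fell (8.33%) was close to that over all genes and the share that rose (2.08%) was below it. WFS1, an ER membrane protein, fell by 0.92, P4HB, the main protein disulfide isomerase, by 0.76, and CREB3L2, a membrane-bound transcription factor, by 0.67, while SRPRB, a subunit of the signal recognition particle receptor, rose by 0.66.

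Of 9 tested UPR sensors and factors, CREB3L2 was the one called, and XBP1 had a difference of -0.21 ± 0.13, ATF6 of -0.22 ± 0.13 and EIF2AK3 of -0.01 ± 0.11 (SE, limma adjusted p = 0.25, 0.20 and 0.94). In the ATF4 and PERK branch 5 of 24 genes rose and 2 fell, which at 20.8% and 8.33% are shares close to those over all genes. TRIB3, a pseudokinase induced by ATF4, rose by 0.77, SLC7A11, the cystine transporter, by 0.77 and CEBPG, a partner of ATF4, by 0.77, while SLC7A5, an amino acid transporter, fell by 0.96. Of 16 cytosolic heat shock genes 8 rose (50%) and 1 fell, with a median of 0.49: HSPH1, an Hsp110 chaperone, rose by 1.00, CHORDC1, an Hsp90 partner, by 0.98 and AHSA1, an Hsp90 activator, by 0.66, and the small heat shock gene HSPB1 fell by 0.93. Of 6 mitochondrial chaperones HSPD1, the Hsp60 and also in the heat shock list, rose by 0.55.

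**Figure D2:**
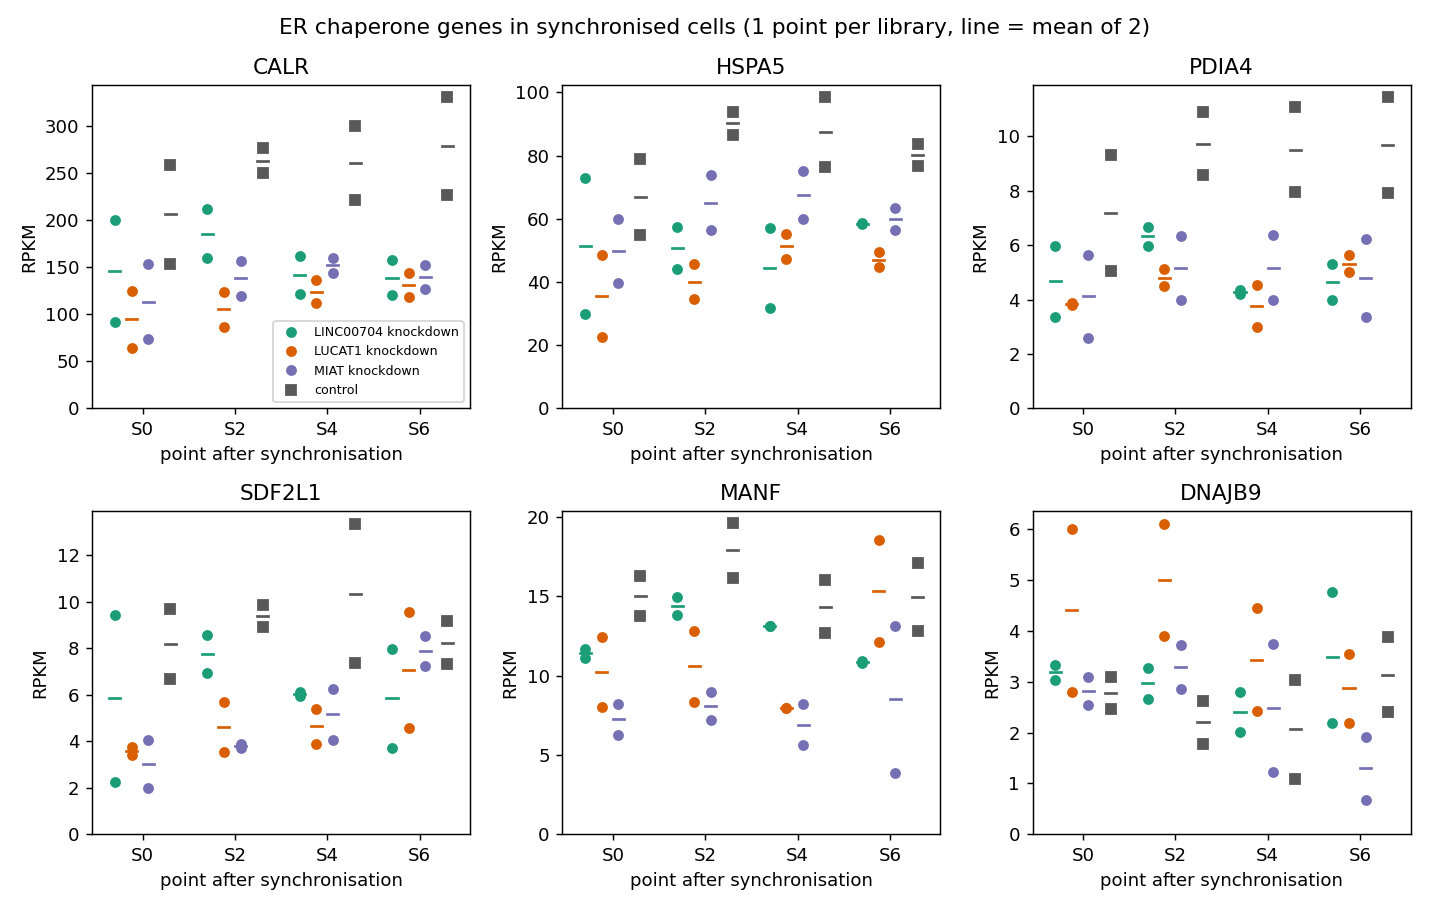
RPKM of 6 ER chaperone genes by point (S0 to S6) in synchronised cells, with LINC00704, LUCAT1 and MIAT knockdown libraries as circles left of the control libraries as squares, and the mean of each pair as a line. All 8 LUCAT1 knockdown values of CALR lie below the 8 control values, and DNAJB9 shows no such separation.

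With MIAT knockdown in synchronised cells 4 members were called lower, beside 2.79% of 9528 genes: MANF fell by 1.06, SDF2L1 by 0.92, PDIA4 by 0.90 and CALR by 0.89. All 10 differences were below 0, with a median of -0.67 against -0.03 over all genes. For DNAJB9 the sign rested on S6, with differences of 0.03 at S0, 0.54 at S2, 0.21 at S4 and -1.22 at S6. The 6 members not called were CRELD2 at -0.72 ± 0.22, HSP90B1 at -0.62 ± 0.19, PDIA6 at -0.47 ± 0.14, HYOU1 at -0.45 ± 0.18, HSPA5 at -0.42 ± 0.16 and DNAJB9 at -0.11 ± 0.26. Their limma adjusted p-values were 0.069, 0.065, 0.054, 0.14, 0.12 and 0.83 in that order.

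MANF, which binds BiP in the ER, had 6.26 and 8.22 RPKM in MIAT knockdown libraries at S0, 7.19 and 8.95 RPKM at S2, 5.64 and 8.19 RPKM at S4, and 13.2 and 3.88 RPKM at S6. Controls had 13.8 and 16.3 RPKM at S0, 19.6 and 16.2 RPKM at S2, 16 and 12.7 RPKM at S4, and 17.1 and 12.8 RPKM at S6. The first S6 knockdown library was the only one inside the range of the controls. Its difference was -1.06 ± 0.22 (SE, limma adjusted p = 0.013).

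CALR lay at 73.9 to 160 RPKM (median 148) in MIAT knockdown libraries and at 153 to 330 RPKM (median 254) in controls. All but the lowest control, an S0 library, exceeded every knockdown library. SDF2L1 lay at 1.99 to 8.52 RPKM (median 4.06) against 6.69 to 13.4 RPKM (median 9.04), with overlap from the S6 libraries. PDIA4 lay at 2.59 to 6.36 RPKM (median 4.82) against 5.04 to 11.4 RPKM (median 8.94).

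Over the alternatives, 248 to 1577 of all genes were called with MIAT knockdown in synchronised cells. The MIAT count of members rested on few libraries. It was 2 without the knockdown library numbered 2 at S2, 7 without the one numbered 3 at S0, and 1 (MANF, -0.80) without the 2 knockdown libraries farthest out on the first principal component, numbered 2 at S0 and S6; the members' median stayed between -0.54 and -0.76 in these fits. A difference of the effect among points was not detectable: none of the 10 members and 0% of 9528 genes were called (limma F-test; 0 members and 110 genes at an unadjusted p under 0.05).

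Among other genes of the pathway, 2 of 21 ER chaperones and folding enzymes fell with MIAT knockdown in synchronised cells, PPIB by 0.94 and FKBP2 by 0.72, and none rose. PPIB lay at 5.69 to 13.6 RPKM in knockdown libraries and at 12.6 to 19 RPKM in controls. None of 47 other targets of the ATF6 and XBP1 type was called (limma), with a median of -0.19. BHLHA15 (MIST1), a transcription factor of secretory cells, was the 1 of 9 UPR factors called and rose by 1.14, at 0.152 to 1.25 RPKM in knockdown libraries against 0 to 0.209 RPKM in controls. In the ATF4 and PERK branch 4 of 24 genes rose and 1 fell, against 4.84% called higher and 2.79% called lower over all genes: TRIB3 rose by 1.06, SLC7A11 by 0.81, ASNS, asparagine synthetase, by 0.66 and PSAT1, of serine synthesis, by 0.57. DNAJB6 was the 1 of 15 cytosolic heat shock genes called and rose by 0.45, and none of 7 mitochondrial chaperones was called (limma).

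Knockdown of LINC00704 in synchronised cells called none of the 10 members, beside 0.0212% of 9442 genes (limma; 9 members and 1559 genes at an unadjusted p under 0.05). The differences of 9 members were nevertheless below 0, with a median of -0.58 against 0.05 over all genes. PDIA4 had 3.38 and 5.96 RPKM in knockdown libraries at S0, 5.97 and 6.68 RPKM at S2, 4.35 and 4.19 RPKM at S4, and 3.98 and 5.31 RPKM at S6, against 5.04 to 11.4 RPKM (median 8.94) in the 8 controls. Only the first control at S0 lay among the knockdown values, and the difference was -0.82 ± 0.18 (SE, limma adjusted p = 0.26). CALR lay at 92.4 to 212 RPKM (median 159) against 153 to 330 RPKM (median 254), with overlap and a difference of -0.73 ± 0.22. HSPA5 was at -0.70 ± 0.21, CRELD2 at -0.67 ± 0.22 and DNAJB9 at 0.25 ± 0.21.

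One library decided that count: without the LINC00704 knockdown library numbered 3 at S0, 7 members and 1035 genes were called, all 7 of them lower. That library had 201 RPKM of CALR and 9.44 RPKM of SDF2L1, where the other library of its group had 92.4 and 2.27 RPKM. The knockdown effect among points was called for none of the members and 0% of genes (limma F-test; 0 members and 37 genes at an unadjusted p under 0.05). Control cells alone, at S6 against S0, gave none of the 10 members and 0.0741% of genes (limma; 0 members and 857 genes at an unadjusted p under 0.05), with a members' median of 0.29 against 0.05 over all genes.

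In each of the 3 asynchronous tables the 9 members other than DNAJB9 were lower in every knockdown library than in both controls. This pattern was common there: 25.2% of genes showed it with LINC00704 knockdown, 31.5% with LUCAT1 knockdown and 44.8% with MIAT knockdown. The 3 comparisons share their 2 control libraries. The members' median was -0.77 with LINC00704, -1.05 with LUCAT1 and -0.70 with MIAT knockdown, against -0.07, -0.10 and -0.12 over all genes.

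MIAT knockdown was the one in which the test called members in asynchronous cells. All 9 lower members were called, beside 31.1% of 9200 genes called lower, and DNAJB9 was called higher, beside 12.6% called higher. SDF2L1 had 8.35, 7.52 and 8.54 RPKM in MIAT knockdown libraries, against 19.1 and 19.5 RPKM in controls, a difference of -1.22 ± 0.10 (SE, limma adjusted p = 0.00049). CRELD2 had 3.90, 4.33 and 4.06 RPKM, against 8.73 and 8.63 RPKM in controls (-1.04 ± 0.09). Both small ER proteins thus lay well apart from the controls, with little spread within a group.

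HYOU1 had 15, 15.8 and 13.8 RPKM in MIAT knockdown libraries, against 28.7 and 28.1 RPKM in controls (-0.92 ± 0.11). PDIA4 had 8.32, 9.51 and 8.98 RPKM, against 16.3 and 17.1 RPKM (-0.88 ± 0.10). CALR had 99.6, 111 and 95.7 RPKM, against 172 and 190 RPKM (-0.82 ± 0.12). The abundant HSPA5 and HSP90B1, with PDIA6 and MANF, had smaller differences, from -0.59 to -0.45, and limma adjusted p-values of 0.012 to 0.028. DNAJB9 had 2.32, 1.67 and 2.20 RPKM, against 1.04 and 1.25 RPKM in controls, and rose by 0.72 ± 0.14 (limma adjusted p = 0.0077). Without control replicate 2 the count was 6, with 5 lower, and after quantile normalization it was also 6, PDIA4, SDF2L1, CRELD2, HYOU1 and CALR lower and DNAJB9 higher; that scaling gave 1358 genes higher and 1701 lower, where the values as deposited gave 1155 and 2861.

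With LUCAT1 knockdown in asynchronous cells none of the 10 members was called, beside 0.209% of 9550 genes (limma; 9 members and 2100 genes at an unadjusted p under 0.05). PDIA4 had 8.36, 6.60 and 7.06 RPKM in knockdown libraries, against 16.9 and 17.7 RPKM in controls (-1.21 ± 0.18, limma adjusted p = 0.068). CALR had 114, 63.5 and 68.1 RPKM, against 178 and 197 RPKM (-1.24 ± 0.29, adjusted p = 0.12). HSPA5 had 74.8, 52.0 and 42.6 RPKM, against 110 and 136 RPKM (-1.15 ± 0.28). Knockdown replicate 1 was the highest of the 3 in these members, and DNAJB9 was lowest in it, with 1.15, 4.58 and 2.34 RPKM in knockdown libraries against 1.08 and 1.29 RPKM in controls. Without it all 10 members were called, 9 lower and DNAJB9 higher, as were 4563 genes.

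LINC00704 knockdown in asynchronous cells called none of the 10 members, beside 0.0557% of 8975 genes (limma; 8 members and 1115 genes at an unadjusted p under 0.05). HYOU1 had 18.5, 14.7 and 11.5 RPKM in knockdown libraries, against 28.8 and 28.0 RPKM in controls (-0.95 ± 0.22, adjusted p = 0.19). PDIA4 had 9.49, 8.18 and 8.29 RPKM, against 16.4 and 17.0 RPKM (-0.93 ± 0.16, adjusted p = 0.14). MANF stood closest to the controls, with 20.9, 17.0 and 18.2 RPKM against 22.9 and 21.6 RPKM (-0.26 ± 0.17). DNAJB9 overlapped the controls, with 0.795, 1.26 and 2.46 RPKM against 1.05 and 1.24 RPKM.

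**Figure D3:**
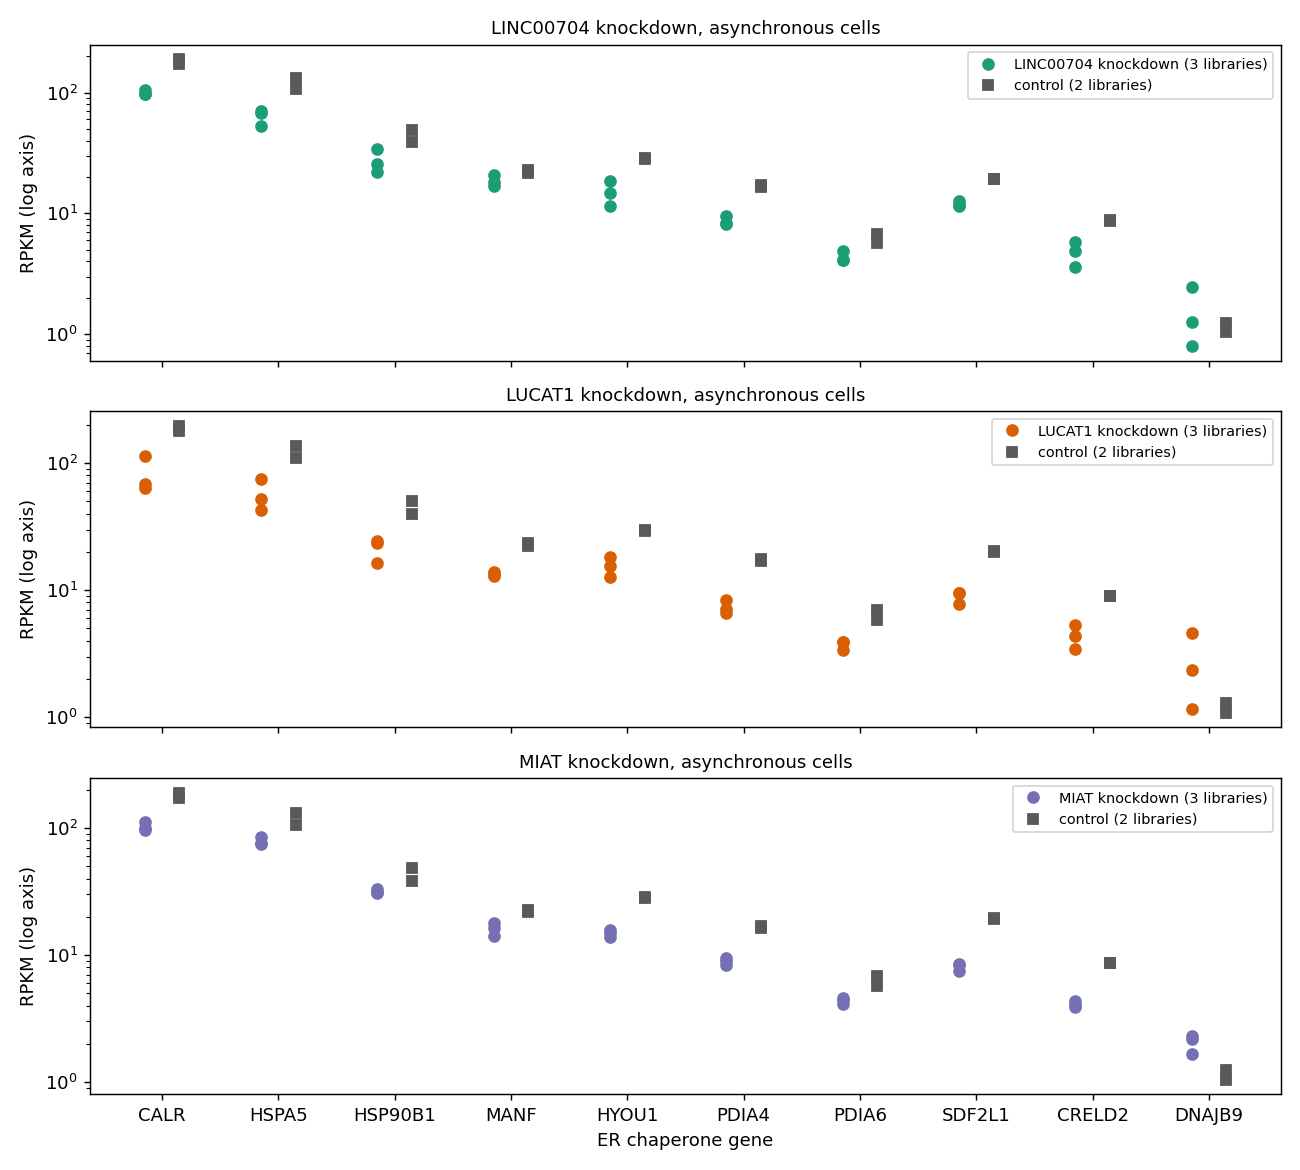
RPKM on a log axis of the 10 ER chaperone genes in asynchronous cells, with the 3 knockdown libraries of each target as circles left of the 2 control libraries as squares. In every panel 9 genes have all circles below both squares, and DNAJB9 does not.

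The authors' deposited table gives its own log2 fold change and FDR for each asynchronous comparison, and does not say which test was used. All 10 members had an FDR under 0.05 in the authors' deposited table for LUCAT1 knockdown (highest 0.0227, MANF), where limma on log2(RPKM + 0.25) called none. All 10 also had one for MIAT knockdown, where limma called 31.1% of all genes lower and 12.6% higher. The share of all genes with an authors' FDR under 0.05 was not counted for any knockdown. Whether the members stand out from other genes by that FDR therefore cannot be judged here. For LUCAT1 knockdown the authors' deposited table has HSPA5 at -1.12 (FDR 1.53e-05), CALR at -1.19 (FDR 2.11e-06) and DNAJB9 at 1.12 (FDR 3.04e-06). For LINC00704 knockdown the authors' deposited table has HYOU1 at -0.93 (FDR 0.00492), CRELD2 at -0.87 (FDR 0.0109), PDIA4 at -0.94 (FDR 0.0131) and CALR at -0.86 (FDR 0.0382), with the other 6 members above 0.05. For MIAT knockdown the authors' deposited table has SDF2L1 at -1.24 (FDR 7.06e-19) and DNAJB9 at 0.80 (FDR 3.47e-06).

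Of 21 other ER chaperones and folding enzymes, 13 fell with MIAT knockdown in asynchronous cells and none rose, with a median of -0.51, against 31.1% called lower over all genes. Of 46 other targets of the ATF6 and XBP1 type 10 fell (21.7%) and 4 rose (8.7%), both below the shares over all genes. SERPINH1 fell by 1.06, at 22.9 to 24.4 RPKM in knockdown libraries and 47.2 to 51.9 RPKM in controls. FKBP2 fell by 0.88, CNPY3, a chaperone of Toll-like receptors, by 0.68 and GANAB, glucosidase II alpha, by 0.68. P4HB fell by 0.83, WFS1 by 0.82 and MYDGF, a secreted growth factor, by 0.70, while SEC11C, of the signal peptidase, rose by 0.71.

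Of 9 UPR sensors and factors tested with MIAT knockdown in asynchronous cells, 2 rose and 4 fell. Over all genes 12.6% were called higher and 31.1% lower, the shares to set beside each count for MIAT knockdown in this paragraph. ATF6 rose by 0.29, at 0.748 to 0.812 RPKM in knockdown libraries and 0.594 to 0.598 RPKM in controls, and BHLHA15 rose by 2.36, at 0.96 to 1.29 RPKM against 0 and 0.0322 RPKM. CREB3, a membrane-bound factor, fell by 0.53, NFE2L1 by 0.51 and MBTPS1, the protease that cleaves ATF6, by 0.39. XBP1 was at -0.25 ± 0.10 and ATF4 at 0.30 ± 0.13 (SE, limma adjusted p = 0.070 and 0.10). In the ATF4 and PERK branch 5 of 22 genes rose (22.7%) and 2 fell (9.09%), and DDIT3 (CHOP), the death-linked factor of this branch, rose by 0.58. Of the other 2 lists, 1 of 16 cytosolic heat shock genes rose and 2 fell, and 2 of 6 mitochondrial chaperones fell, LONP1 by 0.69 and CLPP by 0.39. With LINC00704 or LUCAT1 knockdown in asynchronous cells no gene of these 6 lists was called (limma). XBP1 was at -1.05 ± 0.26 with LUCAT1 knockdown and at -0.30 ± 0.18 with LINC00704 knockdown (SE, limma adjusted p = 0.12 and 0.55).

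Windows after mimosine release were set against asynchronous cells to see whether the members differ in S phase; the windows follow mimosine, so S phase and the drug cannot be told apart. None of the 10 members was called in any of the 4 fractions, beside 0.406% of 10096 genes in whole-cell nascent, 0.0305% of 9825 in whole-cell input, 4.5% of 9784 in nuclear nascent and 4.57% of 9633 in nuclear input RNA (limma). At an unadjusted p under 0.05 there was 1 member in whole-cell nascent, DNAJB9, 1 in nuclear input, HYOU1, and 0 in the other 2 fractions, beside 1387 genes in whole-cell nascent, 865 in whole-cell input, 1987 in nuclear nascent and 1844 in nuclear input RNA. The members' medians were 0.23 in whole-cell nascent, -0.10 in whole-cell input, -0.28 in nuclear nascent and -0.17 in nuclear input RNA, against 0.05, -0.08, -0.01 and 0.00 over all genes.

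DNAJB9 had the largest difference, in whole-cell nascent RNA. It had 4.07 and 2.91 RPKM at T0-2, 5.65 and 2.88 RPKM at T2-4, 3.11 and 3.30 RPKM at T4-6, 5.30 and 1.93 RPKM at T6-8, and 3.80 and 3.02 RPKM at T8-10, against 1.18 and 0.878 RPKM in asynchronous cells. All 10 window libraries lay above both asynchronous libraries, as in 5.81% of the genes tested, and the difference was 1.54 ± 0.35 (SE, limma adjusted p = 0.084). Within libraries numbered 1 it was 1.67, and within those numbered 2 it was 1.42.

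In whole-cell input RNA DNAJB9 went different ways by library number. Window libraries numbered 1 had 5.34, 4.17, 5.18, 4.62 and 5.59 RPKM from T0-2 to T8-10, and those numbered 2 had 1.1, 0.718, 0.855, 0.718 and 0.893 RPKM, against 1.17 and 1.19 RPKM in asynchronous cells. The difference was 1.87 within number 1 and -0.39 within number 2. Of the 10 members 5 were above 0 within number 1 and below 0 within number 2: DNAJB9, MANF (0.29 and -1.13), HSP90B1 (0.75 and -0.48), PDIA6 (0.73 and -0.39) and PDIA4 (0.26 and -0.43). CRELD2 (-0.58 and 0.37) and CALR (-0.06 and 0.18) had the opposite order of signs, and the other 3 were below 0 within both. SDF2L1 was 1 of those 3, at 4.56 to 11.1 RPKM (median 8.59) in the windows against 11.8 and 12 RPKM in asynchronous cells; all 10 window libraries lay below both, as in 7.69% of the genes tested, with a difference of -0.59 ± 0.37 (SE, limma adjusted p = 0.81). In this table the first principal component, with 72.7% of the variance, separated the window libraries by their number, at -65.7 to -49.8 for number 1 and 41.7 to 63.0 for number 2.

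The other members in whole-cell nascent RNA also differed by number. The members' median was -0.29 within number 1 and 0.77 within number 2, against 0.11 and 0.03 over all genes. CALR, for example, had 102 to 136 RPKM in the windows and 151 RPKM in asynchronous cells within number 1, and 159 to 230 RPKM in the windows and 102 RPKM in asynchronous cells within number 2. For 8 members the difference was below 0 within number 1 and above 0 within number 2, and for PDIA6 and DNAJB9 it was above 0 within both.

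In nuclear input RNA HYOU1 had 8.07 and 11.4 RPKM at T0-2, 8.68 and 10.1 RPKM at T2-4, 11.8 and 10.5 RPKM at T4-6, 12 and 9.40 RPKM at T6-8, and 12.5 and 9.52 RPKM at T8-10, against 14.4 and 18.4 RPKM in asynchronous cells. All 10 window libraries lay below both asynchronous ones, as in 8.65% of the genes tested, with a difference of -0.65 ± 0.21 (SE, limma adjusted p = 0.13), -0.45 within number 1 and -0.84 within number 2. In this table libraries of the same number deviated together, and with the number as a block HYOU1 and CRELD2 (-0.38) were called lower, with 3314 genes (34.4%) in all, a larger share than that of the members (limma adjusted p = 0.021 and 0.031). HYOU1 was at -0.73 ± 0.33 in nuclear nascent RNA and HSPA5 at -0.75 ± 0.36 there, with HSPA5 at 25.0 to 73.6 RPKM (median 36.5) in the windows against 56.0 and 78.0 RPKM in asynchronous cells.

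**Figure D4:**
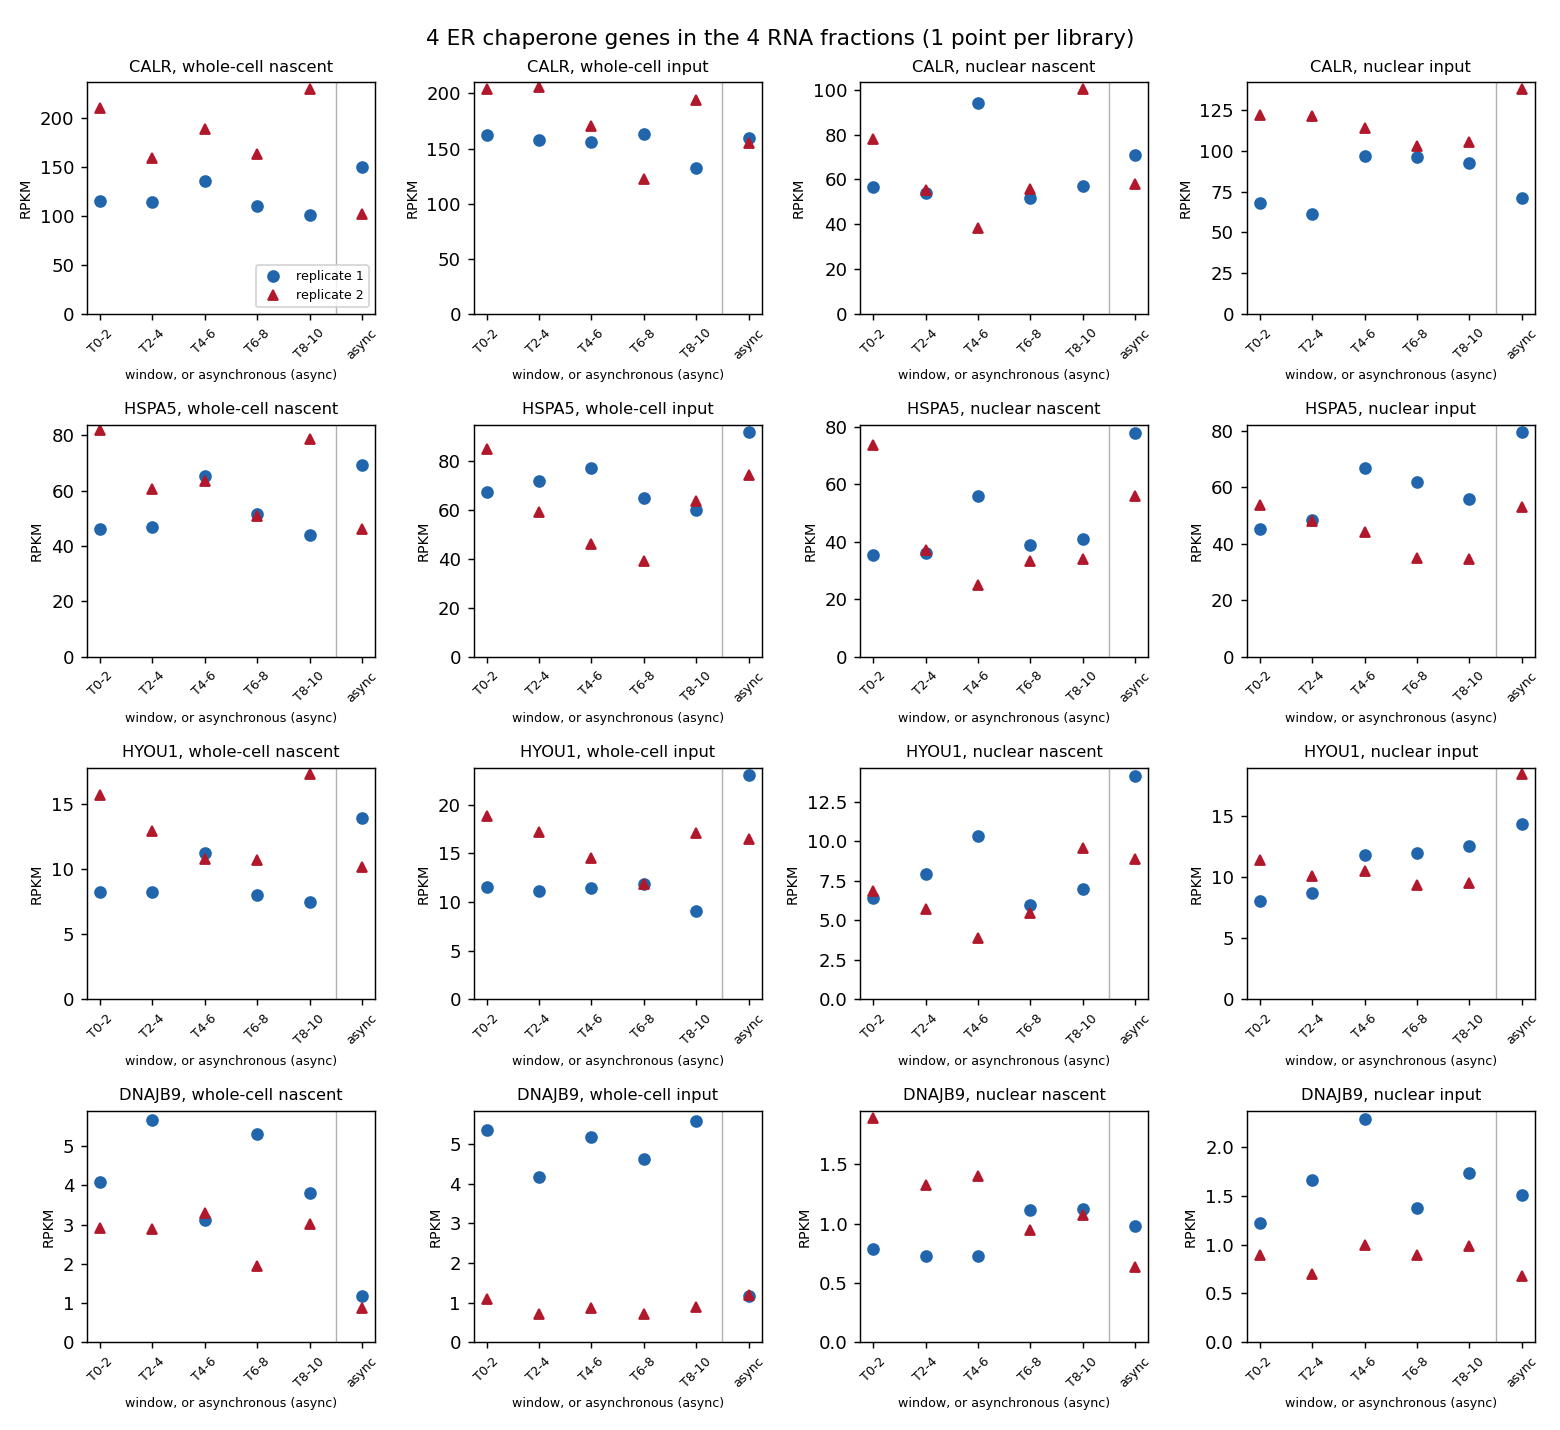
RPKM of CALR, HSPA5, HYOU1 and DNAJB9 (rows) in the 4 RNA fractions (columns) for windows T0-2 to T8-10 and, right of the grey line, asynchronous cells, with replicate 1 as circles and replicate 2 as triangles. DNAJB9 is above both asynchronous libraries in all 10 whole-cell nascent windows, and in whole-cell input RNA its 2 replicates stand apart.

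Between the latest and the earliest window, T8-10 against T0-2, none of the 10 members was called in any fraction, beside 0% of genes in whole-cell nascent, 0% in whole-cell input, 0.358% in nuclear nascent and 0.415% in nuclear input RNA (limma; 0 members at an unadjusted p under 0.05 in each, and 767, 380, 2070 and 1178 genes in that order). The members' medians were 0.01, -0.24, 0.04 and 0.16, with 2 libraries against 2. Over all genes the medians were 0.12 in whole-cell nascent, 0.09 in whole-cell input and 0.15 in nuclear nascent RNA. In whole-cell input RNA all 10 members were below 0, as were 4115 of 9825 genes. The window libraries of that table separated by number, which the main fit ignored. A change between windows paired by number, without the asynchronous libraries, was not tested there. In whole-cell nascent and in nuclear nascent RNA 5 members were below 0. With the number as a block, T8-10 against T0-2 in nuclear input RNA called 0 members and 2142 of 9633 genes (22.2%). An F-test among all 5 windows also called none of the members. Of all genes it called 0% in whole-cell nascent, 0% in whole-cell input, 0.0204% in nuclear nascent and 0.218% in nuclear input RNA (limma). At an unadjusted p under 0.05 there were 0 members in each, and 313, 126, 956 and 624 genes in that order. Over the alternatives the F-test called 0 to 1262 genes in nuclear input RNA.

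Some other genes of the pathway were called in the nuclear tables. Over all genes, 1.95% were called higher and 2.54% lower in nuclear nascent RNA, and 1.96% and 2.61% in nuclear input RNA. Of 21 other ER chaperones and folding enzymes, 2 rose and 1 fell in nuclear input RNA: P4HA2 rose by 1.37 and P4HA1 by 1.1, both subunits of the collagen prolyl hydroxylase, and SERPINH1 fell by 1.20. P4HA2 lay at 1.78 to 3.69 RPKM in the windows and at 0.772 and 0.919 RPKM in asynchronous cells. P4HA2 at 1.18, P4HA1 at 0.95 and SERPINH1 at -1.17 were the 3 called in nuclear nascent RNA. ERO1A, the oxidase that recharges protein disulfide isomerase and a gene of the ATF4 list, rose by 1.57 in whole-cell nascent RNA and by 1.43 in nuclear nascent RNA, at 4.22 to 10.2 RPKM in whole-cell nascent windows against 1.72 and 2.70 RPKM in asynchronous cells.

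Among the ATF4 and PERK genes, 4 of 23 rose in nuclear nascent RNA (ERO1A, SESN2, VLDLR and ATF3) and 2 of 22 in nuclear input RNA (VLDLR and ATF3), and none fell. Of 15 cytosolic heat shock genes 6 fell and 1 rose in nuclear nascent RNA, and 4 fell in nuclear input RNA. HSPD1 was the 1 of 7 mitochondrial chaperones called in nuclear nascent RNA and fell by 1.26. HSP90AB1, the constitutive cytosolic Hsp90, fell by 1.66 in nuclear nascent RNA, at 18.7 to 57.6 RPKM in the windows against 96.9 and 102 RPKM in asynchronous cells, and by 1.25 in nuclear input RNA. None of 9 tested UPR sensors and factors was called in either nuclear table (limma). SSR2, of the translocon-associated complex, fell by 0.84 in nuclear nascent RNA and P4HB rose by 0.88 in nuclear input RNA, each the 1 of 48 other targets of the ATF6 and XBP1 type called there. None of these lists had a called gene in whole-cell input RNA (limma), and ERO1A was the 1 called gene of the 6 lists in whole-cell nascent RNA.

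Across libraries the members followed each other to different degrees. Over the 16 libraries of each synchronised table, the median correlation between 2 members was 0.769 for LINC00704, 0.764 for LUCAT1 and 0.722 for MIAT (Pearson's r, a description across libraries that share controls and knockdown group). CALR, PDIA4 and PDIA6 had correlations with the mean of the other 9 of 0.884 to 0.983, and DNAJB9 had -0.385, -0.569 and 0.00834 in the LINC00704, LUCAT1 and MIAT tables. Over the 48 fraction libraries, centred within their table, the median was 0.415, PDIA4 was highest at 0.904, and SDF2L1 (0.134), DNAJB9 (0.159) and CRELD2 (0.243) were lowest.

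The genes most like the members' mean over the 48 fraction libraries were PPIB at 0.878, APLP2, an amyloid precursor-like protein, at 0.87, APMAP at 0.861, DDOST, a subunit of the oligosaccharyltransferase, at 0.849 and COPG1, a coat protein of COPI vesicles, at 0.834, among 8481 genes with a median of 0.0547. In the LUCAT1 table the nearest were COPG1 at 0.983, then IGFBP5, CD151, CCDC80 and YIF1B at 0.953 to 0.961. In the MIAT table they were COPG1 at 0.974, then ASF1B, SLC35B2, COTL1 and COLGALT1 at 0.955 to 0.965. In the LINC00704 table they were PLXNA2, TAGLN, CCDC80, GDF6 and SLC44A2 at 0.927 to 0.948. These tables share their controls and the knockdown contrast.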

How the data were processed

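RNA levels came from 91 of 96 samples of hTERT-RPE1 cells, in 10 tables of RPKM values that the authors deposited; the other samples were not analysed here. Per the submitters' processing notes, STAR 2.5.3, featureCounts 1.6.1, HOMER 4.10.3 and edgeR were used, and Bowtie2 2.3.4.3 for 85 samples, with hg38. The authors' deposited tables of the asynchronous comparisons also hold, for each gene, an FDR (an adjusted p-value) beside its p-value and log2 fold change; no source used here names the test. RPKM values were whole multiples of a single read for all values tested (tolerance 0.05 reads, counts up to 200), which gave the depth per library.

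In each table, genes that reached 0.5 RPKM in 2 or more libraries were tested as log2(RPKM + 0.25) with limma 3.58.1 (R 4.3.3, moderated variance with trend, Benjamini-Hochberg over all genes tested, threshold 0.05), checked on simulated data. A difference on this scale understates the change of low genes. Window comparisons set 10 libraries against 2, synchronised knockdowns 8 against 8 with the point as a factor, and asynchronous knockdowns 3 against 2. Tables were scaled separately, so tests stayed within a table. Summaries and figures used Python 3.11.15, pandas 2.3.3 and matplotlib 3.10.9.

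The members and gene lists were chosen with earlier results of these data known. All 10 members were named in every comparison, at most 4 called genes a list, those with the largest difference, and a few sensors and factors by role; HBB, and the markers, were named for the check of the cells. Libraries of the same number deviated together in nuclear input RNA (Pearson's r 0.627 to 0.861, median 0.774, over 15 pairs of groups), so the value with the number as a block is given there. Alternatives were other pseudocounts, filters and scalings, a replicate block and leaving out libraries. Promoter sequence came from RefSeq, GRCh38.p14, with a match for all 10 members.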

Additional observations from a re-analysis of the deposited data

How the results depend on the processing

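No member's difference changed sign between the values as reported and an alternative where either passed the threshold. Of the single members' differences under an alternative, 2602 kept their sign and their side of the threshold, 80 lost the call, 48 gained it, and 130 that passed in neither changed sign. With LUCAT1 knockdown in synchronised cells, leaving out each library in turn gave 5 to 10 members called; with MIAT it gave 2 to 7, and with LINC00704 0 to 7. In asynchronous cells it gave 6 to 10 members with MIAT and 0 to 10 with LUCAT1 knockdown, and left the count at 0 with LINC00704. Leaving out the 2 knockdown libraries farthest out on the first principal component, chosen after seeing the data, gave 5 members with LUCAT1, 1 with MIAT and 0 with LINC00704. Quantile normalization gave 2 members in the synchronised MIAT table and 6 in the asynchronous MIAT table.

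For windows against asynchronous cells, the replicate block gave 1 member in whole-cell nascent RNA (DNAJB9, limma adjusted p = 0.023) and 2 in nuclear input RNA. These fits called 2.75% and 34.4% of all genes. In asynchronous cells the block gave 4 members with LINC00704, 3 with LUCAT1 and 7 with MIAT knockdown. Those fits called 1.7%, 5.05% and 36.6% of all genes in that order. A block by the numbers of the column names, added after seeing the data, gave 5 members and 16.8% of all genes with LINC00704 in synchronised cells. It gave 7 members and 40.8% of all genes with LUCAT1, and 6 members and 15.7% with MIAT. The member counts were lower than without a block for LUCAT1 in synchronised and MIAT in asynchronous cells. Outside nuclear input RNA at least 1 pair of groups fell short of the correlation used to call the samples paired, or there was a single pair, so the numbers are not known to pair the samples there. In whole-cell input RNA most pairs correlated strongly (Pearson's r -0.562 to 0.939, median 0.904). With the block there, T8-10 against T0-2 called 0 members and 5 of 9825 genes. That fit included the asynchronous libraries, whose order by number on the first principal component was the reverse of that of the windows. A single block term cannot describe both, so this count does not show what pairing among the windows alone would give. That pairing was not tested. The cause of the changes in the counts of members was not tested either. The counts of members stand beside calls over all genes that also varied. In synchronised cells, 1034 to 4028 genes were called with LUCAT1, 248 to 1577 with MIAT and 1 to 1585 with LINC00704 over the alternatives. In asynchronous cells 0 to 4563 were called with LUCAT1, 1571 to 5782 with MIAT and 0 to 153 with LINC00704. The listed count tests on recovered reads (edgeR and DESeq2) were not run. With 2 libraries a group, effects that differ among points, and differences of the size seen between replicate numbers, could not be resolved; low genes such as SDF2L1 and DNAJB9 in nuclear RNA carry the most counting error.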
